A study of Mus musculus with 6 samples.

Results

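The 10 genes described here belong to the LIF and STAT3 pathway or encode Pim kinases: Lifr, Il6st, Stat3, Socs3, Bcl3, Junb, Ier3, Pim1, Pim2 and Pim3. They were chosen by name. The scanner files carry no gene names, so their probes were found by matching the transcript accession of each probe to the RefSeq gene table, which gave 16 probes for the 10 genes among 17015 genes measured. All 10 were well above background on all 6 arrays. The series measured mRNA on one-colour Agilent arrays in 3 kinds of mouse pluripotent cell of strain 129, with 1 array in each of 6 groups. Mouse embryonic stem (mES) cells and epiblast stem cells (EpiSCs) derived at E3.5 share an embryonic stage, and a second EpiSC kind came from E5.5. Each kind was measured untreated and after 20 µM SB431542 every day for 4 days. All 6 groups were grown in Knockout DMEM with 20% KSR. The labels name no vehicle for the untreated groups, do not mention LIF or feeder cells, and do not say how many clones or embryos stand behind a line.

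Leukemia inhibitory factor (LIF) binds the receptor chain encoded by Lifr, which pairs with the shared signalling chain gp130, encoded by Il6st. Janus kinases bound to the receptor then phosphorylate STAT3, which enters the nucleus and activates target genes, among them Socs3, whose protein blocks the receptor complex in a feedback loop. Naive mES cells are classically kept with LIF, while EpiSCs are primed cells that rely on Activin or Nodal and FGF signals. SB431542 blocks the receptor kinases ALK4, ALK5 and ALK7, through which Activin, Nodal and TGF-beta signal. Pim kinases are serine and threonine kinases that favour survival and growth and need no upstream kinase to be active, so that their activity follows their abundance.

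The share of gene spots well above background ran from 82.6% to 85.7% over the arrays, and 0 were saturated. Every level below is the log2 signal minus the 75th percentile of its array, so that 0 is the level below which 75% of spots fall, and 1 unit is a 2-fold step. Most naive and primed markers went with the labelled cell types on the mES and untreated EpiSC arrays. Zfp42, a naive pluripotency gene, stood at 5.77 and 6.17 on the mES arrays and from -5.70 to -2.01 on the 4 EpiSC arrays. Fgf5, a gene of the primed epiblast, stood at 3.07 and 4.32 on the untreated EpiSC arrays and at -2.62 or below on the other 4. The primed genes T and Fgf8 were likewise highest on the untreated EpiSC arrays, but others parted the classes less. Otx2 stood at -0.18 on the untreated E3.5 and 2.54 on the untreated E5.5 EpiSC array, against -0.04 on the untreated mES array. Pou3f1 (3.41) and Lefty1 (3.58) were already high on the untreated mES array. The treated EpiSC arrays had the pluripotency factor gene Pou5f1 at -5.39 and -4.38, against 5.35 to 5.88 on the other 4, and the neural gene Hes5 at 6.08 and 4.92. Their labelled cell type is thus not borne out by these markers. Other markers of the same kinds were mixed on these treated arrays. Nanog was low (-5.11 and -3.84), but Sox2 stood at 2.77 and 2.80, Lin28a at 1.74 and 2.38, and the neural gene Sox1 at -2.38 and -2.04. All 10 fibroblast or feeder markers were above background on every array, and their summed level ranged from 5.44 to 6.89 on the log2 scale. In such bulk samples, fewer cells of a type and less RNA per cell cannot be told apart. No group has a second array. In the tests the EpiSC class therefore has 2 replicates, its E3.5 and its E5.5 line, and each lone mES array is assumed to vary like them. The labels do not state whether arrays stand for separate cultures, and p-values then cover the spread between these samples alone. With the class as replicate unit, that spread is the gap between the E3.5 and the E5.5 EpiSC array. In it line, embryonic stage, slide and technical spread cannot be told apart.

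Promoter sequence is shown for the genes that stand at the ends of the pathway described here, Socs3 as the classical STAT3 target and Pim2 as the member with the largest change. Both stretches are the 250 bases before the transcription start in RefSeq, build GRCm38.p6, written 5′ to 3′ along the gene. The Socs3 stretch is chr11:117969367-117969616 on the minus strand, and its capitals mark the match to TTCNNNGAA, the STAT-type palindrome. The Pim2 stretch is chrX:7878056-7878305 on the plus strand, and its capitals mark the matches to the octamer ATGCAAAT on either strand.
Socs3: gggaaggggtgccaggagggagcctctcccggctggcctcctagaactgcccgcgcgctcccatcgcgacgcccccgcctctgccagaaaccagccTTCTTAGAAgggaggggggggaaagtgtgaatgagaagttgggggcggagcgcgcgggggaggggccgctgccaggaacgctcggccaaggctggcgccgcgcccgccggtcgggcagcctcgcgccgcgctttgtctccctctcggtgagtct
Pim2: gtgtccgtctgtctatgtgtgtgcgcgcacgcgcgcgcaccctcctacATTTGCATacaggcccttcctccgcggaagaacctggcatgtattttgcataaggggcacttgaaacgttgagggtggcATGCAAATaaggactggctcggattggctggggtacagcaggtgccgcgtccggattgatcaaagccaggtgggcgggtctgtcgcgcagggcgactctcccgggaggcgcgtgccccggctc
The table held 12 promoter entries for the 10 genes, each of 300 bases (250 before and 50 after the start), and all 10 were matched. The search for TTCNNNGAA, which reads the same on both strands, found a single match among the 12, TTCTTAGAA in Socs3 at positions -154 to -146 from the start. That motif was present in 8.30% of the 32851 promoters of the table. The same arms, TTC and GAA, with 4 letters between them matched in none of the 12 and in 6.95% of all promoters. The octamer was searched only after the Pim2 sequence had been read. It matched in Pim2 at -202 to -195, as ATTTGCAT, and at -123 to -116, as ATGCAAAT, and in no other member promoter. It was present in 1.74% of all promoters, and 35 promoters (0.107%) held 2 or more. No matches overlapped in the members. A match describes the letters and says nothing of binding.

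The spread over the 6 arrays differed greatly between the members. Pim2 covered 6.25 log2 units from its lowest to its highest array, a wider range than that of 98.4% of the genes tested. Bcl3 covered 5.03 units (96.4%) and Socs3 3.41 units (89.8%). Ier3 covered 3.12, Pim3 2.62 and Stat3 2.08 units, while Junb (1.69), Pim1 (1.62), Lifr (1.44) and Il6st (1.19) lay nearer to the median gene, at 1.30. The treated E3.5 EpiSC array was the lowest of the 6 for 9 of the 10 members, Pim1 being the exception, and it was the lowest array for 42.7% of all genes tested. Both mES arrays were above all 4 EpiSC arrays for 5 members, Lifr, Socs3, Bcl3, Ier3 and Pim3, and for 31.3% of all genes tested. After quantile normalization Socs3 dropped out of this group, with its treated E5.5 EpiSC array between the mES arrays. Both mES arrays were below all EpiSC arrays for 0 of the 10 members and for 19% of all genes. Both treated EpiSC arrays were below the other 4 for Ier3, Pim2 and Pim3, and for 29.6% of all genes.

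**Figure D1:**
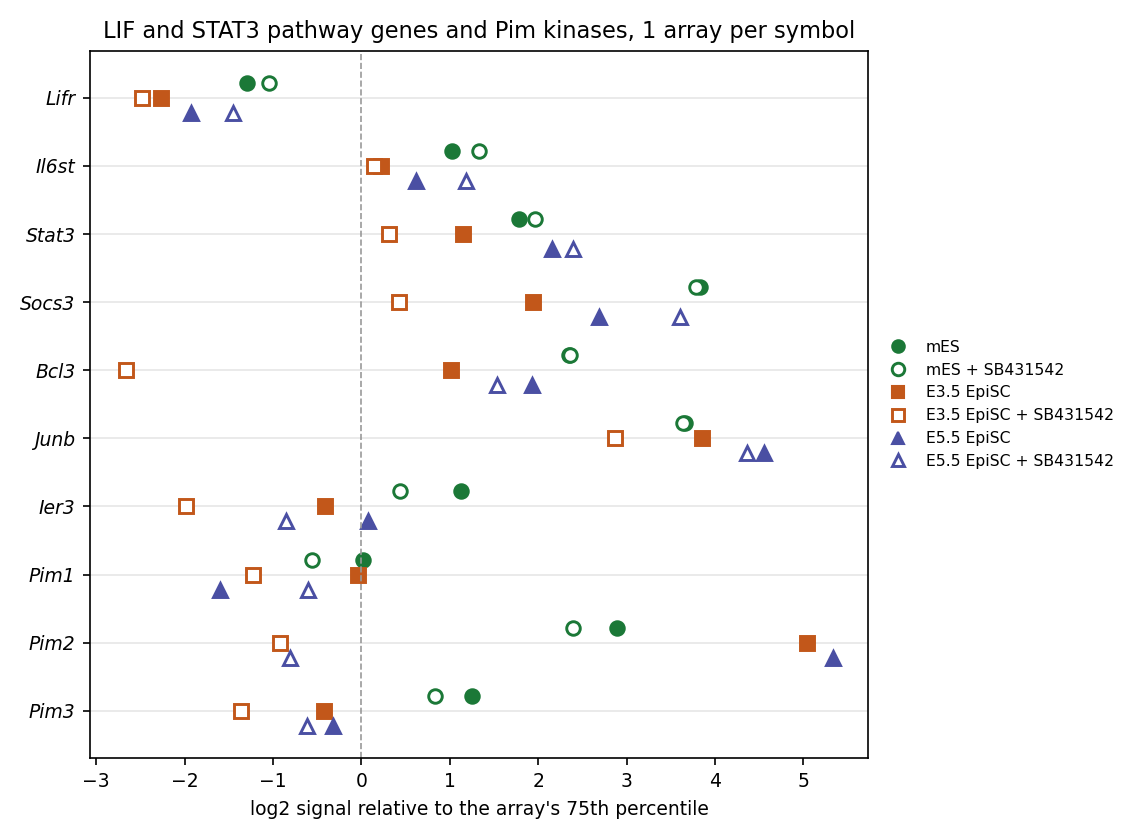
Each symbol is the log2 signal of 1 array minus its 75th percentile, for the brightest probe of each of the 10 genes. Filled symbols are untreated and open symbols SB431542-treated arrays of the mES (circles), E3.5 EpiSC (squares) and E5.5 EpiSC (triangles) lines, and no error bars are drawn because each group holds 1 array. The open squares lie farthest left for 9 of the 10 genes, and the Pim2 symbols run from -0.92 to 5.33.

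Lifr, which encodes the LIF-binding receptor chain, stood at -1.29 on the mES array, -1.04 on the treated mES array, -2.27 and -2.49 on the untreated and treated E3.5 EpiSC arrays, and -1.93 and -1.46 on the untreated and treated E5.5 EpiSC arrays. On this brightest probe the mES arrays were the highest pair and did not overlap the EpiSC arrays. On another probe (A_52_P192699) the treated E5.5 EpiSC array, at -2.64, lay above the untreated mES array, at -2.69. Untreated EpiSCs differed from mES cells by a log2 difference of -0.81 ± 0.53 (SE, with n = 2 EpiSC and 1 mES arrays; limma adjusted p = 0.567). Both untreated EpiSC lines lay below the mES array and differed from each other by 0.34, but the class difference did not pass. The 3 dimmer Lifr probes gave estimates of -0.97, -1.80 and -2.10 for the same comparison, with adjusted p from 0.227 to 0.515 in a limma fit over 37254 probes. All 4 probes were lower in both untreated EpiSC lines than in untreated mES cells, and the brightest one had the smallest estimate.

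The 4 Lifr probes parted over SB431542. In mES cells all 4 were higher on the treated array, by 0.25 to 0.70. In the E5.5 line all 4 were higher too, by 0.47 to 1.44. In the E3.5 line the brightest probe differed by -0.21 on the treated array, while the other 3 were higher by 0.67, 0.85 and 1.26. Over both EpiSC lines the 4 estimates ran from 0.13 to 1.35, with adjusted p from 0.259 to 0.886 in the fit over probes, so none passed. All 4 probes carry the same transcript accession, and the part of the transcript each one reads was not analysed here.

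**Figure D2:**
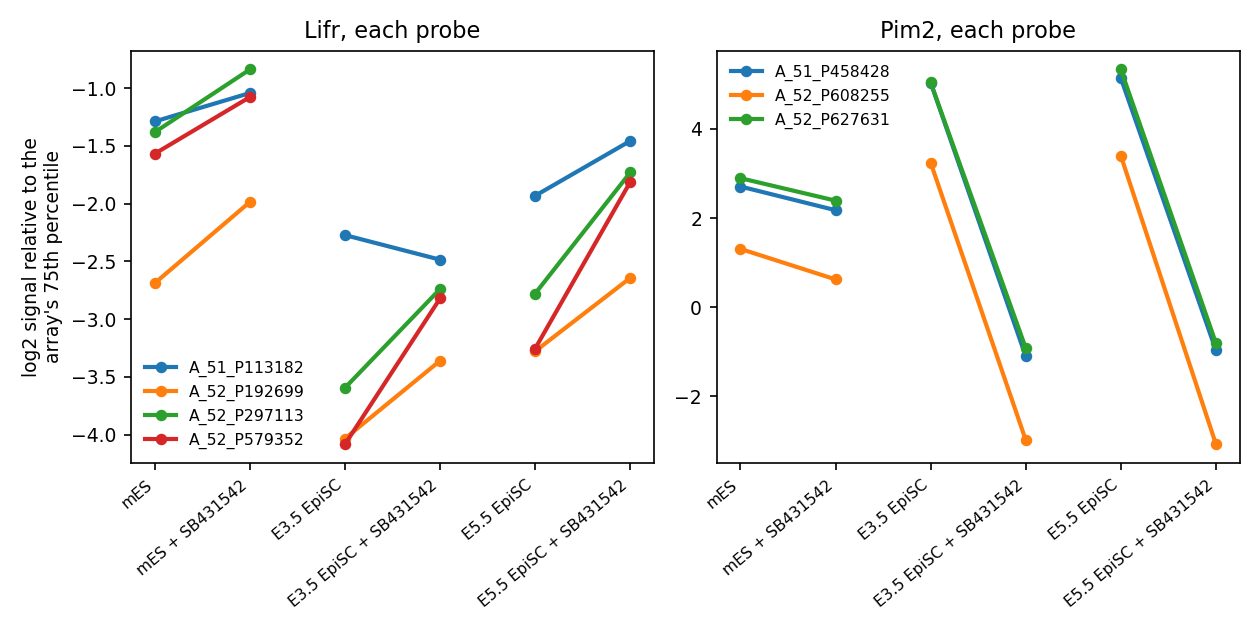
Each line joins the untreated and the treated array of 1 cell line for 1 probe, on the log2 scale minus the array's 75th percentile, with the 4 Lifr probes on the left and the 3 Pim2 probes on the right. The Lifr probes differ in direction only in the E3.5 pair (from -0.21 to 1.26), and the 3 Pim2 probes differ by -6.47 to -5.96 in both EpiSC pairs. No error bars are drawn, since each point is 1 array.

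Il6st, the gene for the shared chain gp130, stood at 1.02 and 1.33 on the untreated and treated mES arrays, 0.23 and 0.14 on the E3.5 EpiSC arrays, and 0.62 and 1.19 on the E5.5 EpiSC arrays. The E3.5 arrays were the lowest pair, and the treated E5.5 array lay between the mES arrays, so the classes overlapped. Untreated EpiSCs differed from mES cells by -0.60 ± 0.54 (SE, n = 2 and 1; limma adjusted p = 0.698, 95% interval -2.03 to 0.83). SB431542 in EpiSCs gave 0.24 ± 0.44 (n = 2 and 2; limma adjusted p = 0.775), and neither difference passed. The EpiSC lines differed from each other by 0.39 untreated and by 1.05 treated. The products of Lifr and Il6st signal as a pair. By their brightest probes these genes had a Pearson correlation of 0.977 over the 6 arrays, the highest Pearson value among the 45 pairs of members. By rank (Spearman) they stood at 0.943, below Ier3 and Pim3 at 1. This correlation is a description of 6 arrays that share their lines and their scaling. It was not computed for the dimmer Lifr probes, which differed in sign from the brightest one in the E3.5 pair.

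Stat3 encodes the transcription factor of the pathway and was read by 10 repeat spots of 1 probe, whose SD within an array was 0.03 to 0.10 on the log2 scale. It stood at 1.78 and 1.96 on the untreated and treated mES arrays, 1.15 and 0.31 on the E3.5 EpiSC arrays, and 2.16 and 2.39 on the E5.5 EpiSC arrays. The E5.5 arrays were the highest pair and the E3.5 arrays the lowest, with mES cells between, so the order did not follow the class. The E3.5 arrays were each on a slide of their own, so line and slide cannot be told apart here. The repeat spots were far tighter than the gap of 2.08 between the extreme arrays, but they measure the spotting and not the cells. Untreated E3.5 EpiSCs were 1.55-fold below mES cells and untreated E5.5 EpiSCs 1.30-fold above them. The class difference was -0.13 ± 0.98 (limma adjusted p = 0.973, 95% interval -2.69 to 2.44). SB431542 in EpiSCs gave -0.31 ± 0.80 (limma adjusted p = 0.843), the mean of -0.84 in the E3.5 line and 0.23 in the E5.5 line.

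Socs3, the feedback inhibitor and classical STAT3 target whose promoter is shown above, stood at 3.84 and 3.78 on the untreated and treated mES arrays, 1.94 and 0.43 on the E3.5 EpiSC arrays, and 2.69 and 3.60 on the E5.5 EpiSC arrays. The treated mES array differed from the untreated one by -0.05, and they were the highest pair. Untreated Socs3 was 3.73-fold lower in E3.5 EpiSCs and 2.22-fold lower in E5.5 EpiSCs than in mES cells. The class difference of -1.53 ± 1.34 (SE, n = 2 and 1; limma adjusted p = 0.687, 95% interval -5.05 to 2.0) did not pass. On treatment the E3.5 line was 2.85-fold lower and the E5.5 line 1.89-fold higher, so that the treated lines stood 9.05-fold apart. The treated E5.5 array differed from the treated mES array by -0.18, or by 0.01 after quantile normalization, and the treated E3.5 array was 10.3-fold below it. Over both EpiSC lines the treatment difference was -0.30 ± 1.1 (limma adjusted p = 0.889).

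Bcl3 encodes a nuclear protein of the IκB family that acts as a cofactor of NF-κB and is a known LIF target in mES cells. It stood at 2.35 and 2.37 on the untreated and treated mES arrays, 1.02 and -2.67 on the E3.5 EpiSC arrays, and 1.93 and 1.54 on the E5.5 EpiSC arrays. A single array, treated E3.5 EpiSC, lay apart from the other 5, at a difference of -3.68 from the next lowest. The treated E3.5 array was 12.9-fold below its untreated partner, while the E5.5 pair differed 1.31-fold in the same direction. In mES cells the treated array differed by 0.015, or by -0.02 after quantile normalization. The difference in EpiSCs was -2.04 ± 1.43 (SE, n = 2 and 2; limma adjusted p = 0.464, 95% interval -5.79 to 1.71). Without the treated E3.5 array the estimate was 0.065. Bcl3 was read by 1 probe on single spots, so no second probe bears on that value.

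Junb encodes an AP-1 subunit that cells induce quickly after a signal. It stood at 3.66 and 3.64 on the untreated and treated mES arrays, 3.86 and 2.87 on the E3.5 EpiSC arrays, and 4.56 and 4.37 on the E5.5 EpiSC arrays. The E5.5 arrays were the highest pair, and the treated E3.5 array the lowest. A second, dimmer probe gave the same signs in all 3 treatment pairs, with -1.52 in place of -0.99 in the E3.5 line. The class difference was 0.54 ± 0.73 (limma adjusted p = 0.816) and the treatment difference in EpiSCs -0.59 ± 0.60 (limma adjusted p = 0.601). Neither passed, and the EpiSC lines differed from each other by 0.70 untreated and by 1.5 treated.

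Ier3 encodes a short-lived protein of the immediate early response that affects cell survival. It stood at 1.13 and 0.44 on the untreated and treated mES arrays, -0.41 and -1.99 on the E3.5 EpiSC arrays, and 0.07 and -0.85 on the E5.5 EpiSC arrays. The treated array was the lower in all 3 lines, by 1.61-fold in mES cells, 2.99-fold in E3.5 EpiSCs and 1.89-fold in E5.5 EpiSCs. Among the 10 members, Junb, Ier3, Pim2 and Pim3 were lower on the treated array of every line under each of the 3 scalings tried, as were 16.9% of all genes tested. The mean difference over the 3 lines was -1.06 ± 0.26 (SE, n = 3 pairs; limma adjusted p = 0.502, unadjusted p = 0.0126). In EpiSCs alone it was -1.25 ± 0.48 (limma adjusted p = 0.253). Untreated EpiSCs were lower than mES cells by 2.90-fold (E3.5) and 2.08-fold (E5.5), with a class difference of -1.30 ± 0.58 (limma adjusted p = 0.386). None of these passed the threshold of 0.05.

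Pim1, the first described kinase of its family, stood at 0.01 and -0.56 on the untreated and treated mES arrays, -0.04 and -1.23 on the E3.5 EpiSC arrays, and -1.60 and -0.61 on the E5.5 EpiSC arrays. The lines parted both before and after treatment, with the untreated E5.5 array the lowest and the untreated mES and E3.5 arrays the highest, differing by -0.05 (E3.5 minus mES). On treatment the E3.5 line was 2.28-fold lower and the E5.5 line 1.99-fold higher. The treatment difference in EpiSCs was -0.10 ± 0.60 (limma adjusted p = 0.936), and the class difference -0.84 ± 0.74 (limma adjusted p = 0.688).

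Pim3, the kinase with a reported role downstream of LIF in mES cells, stood at 1.25 and 0.84 on the untreated and treated mES arrays, -0.42 and -1.37 on the E3.5 EpiSC arrays, and -0.32 and -0.62 on the E5.5 EpiSC arrays. Both mES arrays were above all 4 EpiSC arrays. Untreated Pim3 was 3.20-fold lower in E3.5 and 2.99-fold lower in E5.5 EpiSCs than in mES cells, and the lines differed by 0.10. The class difference of -1.63 ± 0.43 (SE, n = 2 and 1; limma unadjusted p = 0.0147) did not pass after adjustment (adjusted p = 0.172). The treatment differences were -0.42, -0.94 and -0.29 in mES, E3.5 and E5.5 cells. The treatment difference in EpiSCs was -0.62 ± 0.35 (limma adjusted p = 0.385).

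Pim2 had a class difference of the opposite sign to that of Pim3, and it fell under SB431542 in EpiSCs. It stood at 2.89 and 2.39 on the untreated and treated mES arrays, 5.04 and -0.92 on the E3.5 EpiSC arrays, and 5.33 and -0.81 on the E5.5 EpiSC arrays. The untreated EpiSC arrays were the highest pair, the treated EpiSC arrays the lowest, and the mES arrays lay between without overlap. In scanner intensity this was 39184 and 49485 units before and 953 and 832 units after treatment in the EpiSC lines, against 10292 and 6711 in mES cells. In EpiSCs Pim2 fell by 6.05 ± 0.27 on the log2 scale, which is 66.3-fold (SE, n = 2 and 2; limma adjusted p = 0.0228, 95% interval -6.76 to -5.34). By unadjusted p it ranked 2 among the 16152 genes tested. The treated array was 62.2-fold lower in the E3.5 and 70.7-fold lower in the E5.5 line. In mES cells the treated array was 1.42-fold lower. The other Pim2 probes gave -6.12 and -6.35 in EpiSCs, and all 3 passed in the fit over probes (adjusted p = 0.0308 each), in which 1.58% of probes passed.

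Before treatment Pim2 was 4.43-fold higher in E3.5 and 5.42-fold higher in E5.5 EpiSCs than in mES cells. The class difference was 2.29 ± 0.33 (SE, n = 2 and 1; 95% interval 1.42 to 3.16) and narrowly missed the threshold (limma adjusted p = 0.0585). It passed with normexp background correction (adjusted p = 0.0440), quantile normalization (adjusted p = 0.0470) and a filter on genes above background on all 6 arrays (adjusted p = 0.0457). It did not pass without a filter (adjusted p = 0.0609), with the mean over probes (0.0569) or when 1 EpiSC array was left out (0.105 to 0.198), all by limma. In the fit over probes 0 of the 3 Pim2 probes passed (adjusted p from 0.0619 to 0.0835), where 1.23% of probes did. After treatment Pim2 was lower than in treated mES cells, by 9.91-fold in E3.5 and 9.20-fold in E5.5 EpiSCs. The change in EpiSCs minus that in mES cells was -5.55 ± 0.47 and did not pass (limma adjusted p = 0.286, unadjusted p = 0.000117), in a comparison where 0 genes passed and 1109 had an unadjusted p under 0.05. The call for SB431542 in EpiSCs was lost without the treated E3.5 array (adjusted p = 0.141) or without the treated E5.5 array (adjusted p = 0.0696), with estimates of -6.00 and -6.10 that hardly moved.

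Summed levels of pluripotency and neuroectoderm markers also differed between the treated and untreated EpiSC arrays. The pluripotency markers shared by both cell classes had a summed level of 6.19 to 6.58 on the mES and untreated EpiSC arrays and of 3.60 and 3.78 on the treated EpiSC arrays, with 5 of 5 above background on every array. The summed neuroectoderm markers, 6 of 6 above background, stood at 2.20 to 3.26 on those 4 arrays and at 6.88 and 6.80 on the treated EpiSC arrays. In each EpiSC line 4 of the 5 pluripotency markers were at least 2-fold lower on the treated array, while Sox2 was higher, by 0.66 (E3.5) and 0.32 (E5.5). Of the 6 neuroectoderm markers 4 were at least 2-fold higher in each line, while Msi1 differed by -0.40 and -0.02 and Sox1 by 0.36 and 0.75. The part of these markers in the Pim2 result was not tested. The summed fibroblast or feeder markers stood at 6.23 and 6.89 before and 6.07 and 6.88 after treatment in the E3.5 and E5.5 lines, but single markers went apart. In the E3.5 line 6 of 10 were at least 2-fold higher and 1 lower on the treated array (median 1.73), and in the E5.5 line 1 was higher and 5 lower (median -1.08). Their part in the Pim2 result was not tested either.

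The comparison of untreated EpiSCs with mES cells asked how the cell classes differ. By limma with Benjamini-Hochberg adjustment 0 of the 10 members passed, 2 had an unadjusted p under 0.05 (Pim2 and Pim3), and 1.5% of the 16152 genes passed. Estimates were negative for 8 members, with Junb and Pim2 positive, and for 53.9% of all genes tested. The median of the members was -0.82 against -0.06 over all genes tested. By a 2-fold rule with no test, Socs3, Bcl3, Ier3 and Pim3 were lower and Pim2 higher in E3.5 EpiSCs, where 12.4% of genes were lower and 10.8% higher. In E5.5 EpiSCs Socs3, Ier3, Pim1 and Pim3 were lower and Pim2 higher, where 10.6% of genes were lower and 11.7% higher. Of the 10 fibroblast or feeder markers, 7 were at least 2-fold higher and 0 lower on that E5.5 array than on the mES array (median 1.91), against 1 higher and 2 lower in the E3.5 line (median -0.10). Their part in the members' differences was not tested. On the brightest probes Socs3, Ier3, Pim2 and Pim3 thus passed 2-fold in both lines, and the share of all genes that did so in both was not counted. With normexp Ier3 fell short in the E5.5 line, at -0.97. Within the slide that held both mES and both E5.5 arrays, the E5.5 difference of Pim2 was 2.44. The E3.5 arrays were each on a slide of their own, so for that line slide and line cannot be told apart.

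**Figure D3:**
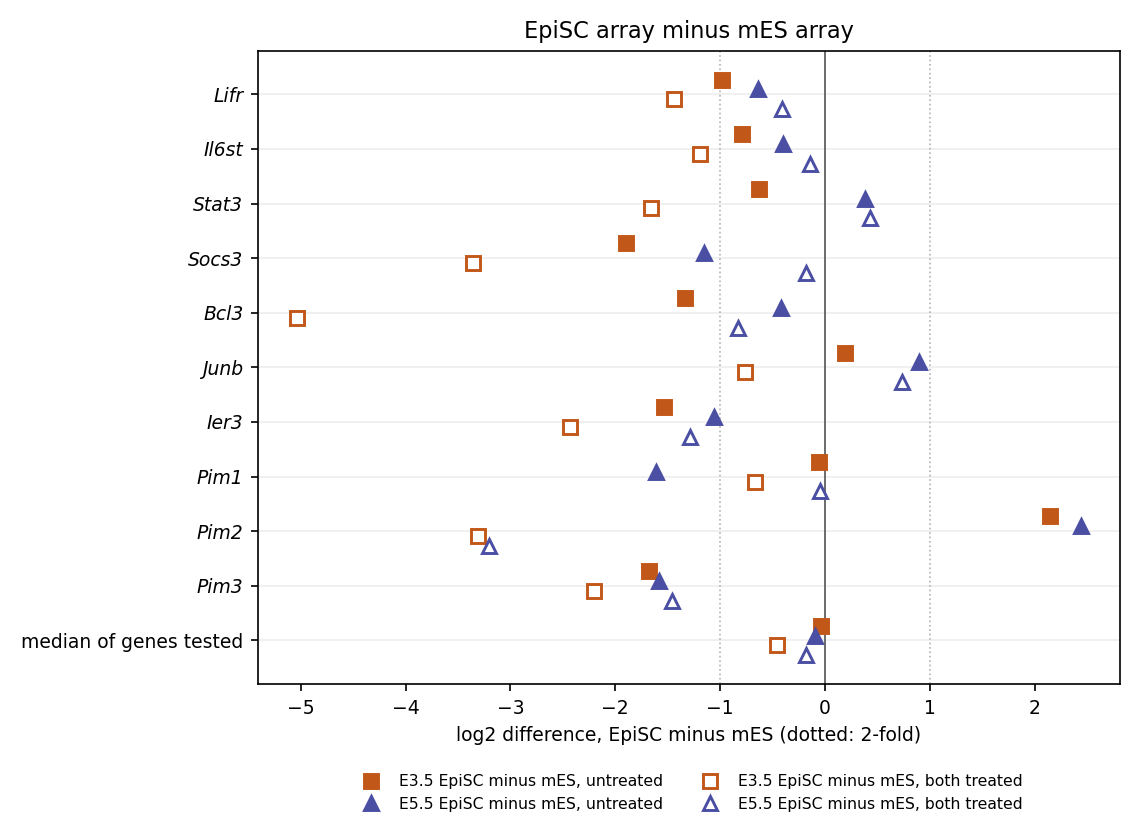
Each symbol is the log2 difference between an EpiSC array and the mES array of the same treatment, for the E3.5 (squares) and E5.5 (triangles) lines, untreated (filled) and treated (open). Dotted lines mark 2-fold and the last row is the median of all genes tested. Pim2 is the member whose filled symbols lie beyond 2-fold on the right (2.15 and 2.44) and whose open symbols lie beyond 2-fold on the left (-3.31 and -3.20).

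The comparison of treated with untreated EpiSCs asked how these genes differ after 4 days of SB431542. The treated arrays also differed in pluripotency and neural markers, so lost receptor signalling and a changed cell state cannot be told apart. Of the 10 members 1 passed, Pim2, which was lower, against 1.2% of all genes passing as lower and 2.09% in either direction. The lines pair the arrays, and with the line as a block Pim2 still passed (adjusted p = 0.0119) as the only member, while 5.01% of all genes passed. Estimates were negative for 8 members, with Lifr and Il6st positive, and for 62% of all genes. The median of the members was -0.45 against -0.19 over all genes. The values within each line follow, with no test of a difference between the lines. The untreated and the treated E3.5 array were on different slides, while the mES and E5.5 pairs shared slide 1, so in the E3.5 line treatment and slide cannot be told apart. In the E3.5 line all 10 members were lower on the treated array by their brightest probes, while the other 3 Lifr probes were higher. The median was -1.09 against -0.31 over all genes tested, and the share of all genes with that sign was not counted. By 2-fold or more 5 members were lower (Socs3, Bcl3, Ier3, Pim1 and Pim2), where 19.7% of genes were lower to that extent. In the E5.5 line 5 members were higher and 5 lower, with a median of 0.02 against -0.05 over all genes tested. The shares of all genes by sign were not counted there. Pim2 alone passed 2-fold, where 8.75% of genes were lower to that extent, while Pim1 (0.99) and Socs3 (0.92) lay just under 2-fold higher. In mES cells 0 members passed 2-fold, where 2.53% of genes did so in either direction, and the largest difference was that of Ier3, at -0.69.

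**Figure D4:**
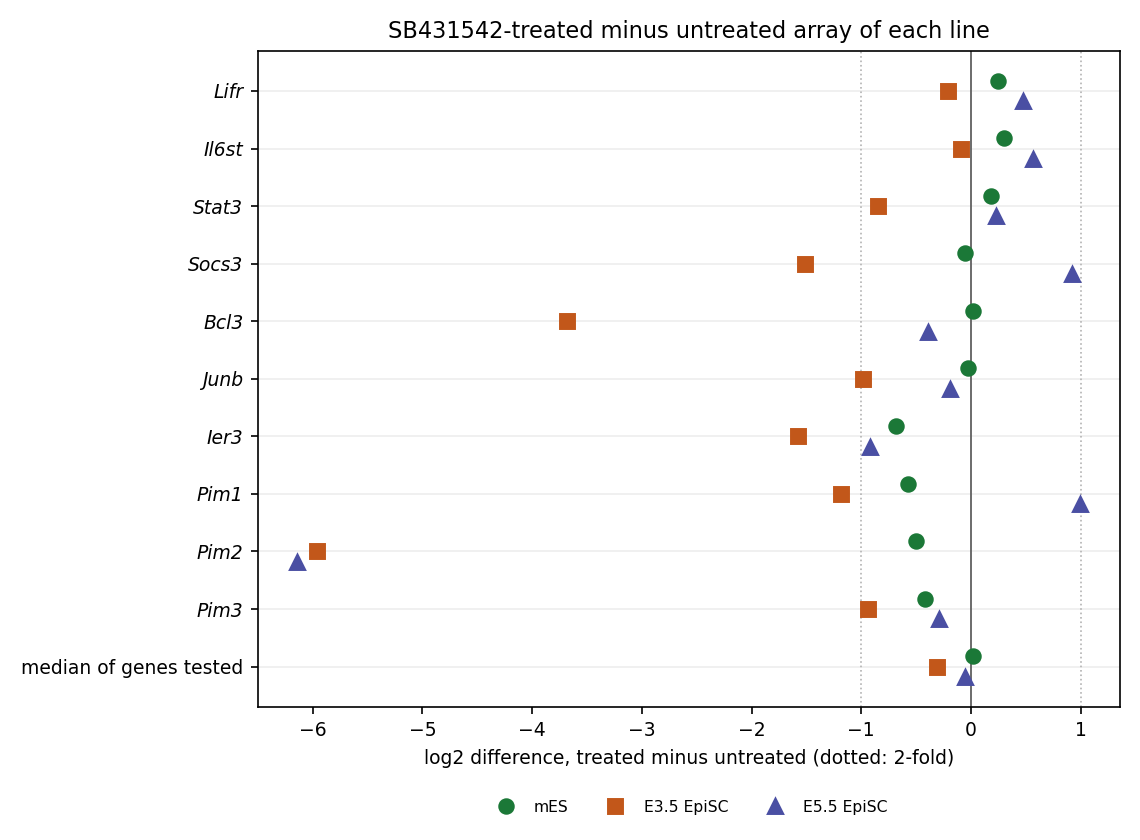
Each symbol is the log2 difference between the treated and the untreated array of 1 line, for mES cells (circles), E3.5 EpiSCs (squares) and E5.5 EpiSCs (triangles), with dotted lines at 2-fold and the median of all genes tested in the last row. Pim2 lies near -6 in both EpiSC lines (-5.96 and -6.14), and Bcl3 lies at -3.68 in the E3.5 line alone.

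The scaling moves these counts. With normexp Junb (-1.11) and Pim3 (-1.01) also passed 2-fold lower in the E3.5 line, and Pim1 (-0.88) fell short. In the E5.5 line Socs3 then passed 2-fold higher (1.096), opposite in sign to Pim2. After quantile normalization the members that passed 2-fold in each EpiSC line were unchanged. The median of all genes tested shifted by -0.31 between the E3.5 arrays, and by -0.09 after quantile normalization. In the E5.5 pair it shifted by -0.05, or by -0.28 with normexp. The signs of the 10 members in the E3.5 pair were the same under all 3 scalings. Markers of other cell types also differed within the E3.5 pair. Beside the fibroblast or feeder markers given above, the macrophage gene Lyz2 stood at 0.46 before and 1.85 after treatment, while Ptprc, the pan-leukocyte gene, was not well above background on either array. The part of these cell types in the members' values was not tested.

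Between the treated EpiSC lines, all 10 members had the higher value on the E5.5 array by their brightest probes. The median was 1.09 against 0.23 over all genes tested, and the share of all genes with that sign was not counted. By 2-fold or more 7 members were higher, where 10.6% of all genes were so. With normexp Lifr (0.96) and Ier3 (0.88) fell short of 2-fold, as did Lifr (0.98) and Il6st (0.97) after quantile normalization. The largest gaps between the treated lines were those of Bcl3 (18.5-fold), Socs3 (9.05-fold) and Stat3 (4.23-fold), while Pim2 differed by 1.08-fold. Between the untreated EpiSC lines 9 members were higher in the E5.5 line, with a median of 0.44 against -0.01 over all genes tested. Here too the share of all genes with that sign was not counted. Only Stat3 was higher by 2-fold (2.01-fold), and Pim1 was 2.95-fold lower. Stat3 fell short of 2-fold with normexp (0.93) and after quantile normalization (0.99). Of all genes, 5.93% were higher and 3.75% lower by 2-fold or more between the untreated lines. In both comparisons the arrays set against each other were on different slides, so line and slide cannot be told apart. Pim2, the only member to pass a test, was the one that differed least between the treated lines. The lines are the replicates of that test, so a small gap between them is part of the call and no separate result.

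Over all 3 lines, in a model of line plus treatment, 0 of the 10 members and 0 genes passed by limma, and 1397 genes had an unadjusted p under 0.05. Pim2 stood at -4.20 ± 1.26 (SE, n = 3 pairs; adjusted p = 0.502), a mean that includes -0.50 in mES cells, and Pim3 at -0.55 ± 0.23 (adjusted p = 0.502). The mean over the lines was negative for 8 of 10 members and 61% of all genes, with a median of -0.33 for the members and -0.12 for all genes. The treatment difference in EpiSCs minus that in mES cells was negative for 9 of 10 members, with Pim1 the exception, and for 62% of all genes. The medians there were -0.37 and -0.21. Of these 10 differences in response 0 passed (limma adjusted p from 0.286 to 0.989).

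The rest of the pathway was described from lists of genes chosen by name. Among all genes tested, 1.5% passed between the classes and 2.09% for SB431542 in EpiSCs, or 5.01% there with the line as a block. The medians of all genes were -0.06 and -0.19. Calls in the lists were not tested against these shares. Of the IL-6 family ligands, 6 of 8 were measured, since Lif and Cntf had no named probe, and 0 passed in either comparison. Their medians were -0.25 for EpiSCs against mES cells and -0.07 for SB431542 in EpiSCs. Osm had the largest class estimate, -1.27 ± 0.74 (limma adjusted p = 0.514). Of 5 other receptor chains 0 passed. Cntfr, the chain that binds ciliary neurotrophic factor together with the Lifr and Il6st products, stood at -1.61 and -1.69 on the mES arrays and from 0.45 to 1.71 on the 4 EpiSC arrays. Its class difference was 2.48 ± 0.50 (limma adjusted p = 0.107), in the direction opposite to that of Lifr.

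Of 4 Janus kinase genes 0 passed in either comparison. Jak1 stood at 1.19 on the mES array, 1.98 on the untreated E3.5 and 1.84 on the untreated E5.5 EpiSC array, a class difference of 0.72 ± 0.34 (limma adjusted p = 0.416). Jak2 stood at -2.59 and -2.56 on the mES arrays, -1.60 and 0.25 on the E3.5 EpiSC arrays, and -1.28 and 0.30 on the E5.5 EpiSC arrays. It was thus higher on the treated arrays of both EpiSC lines and differed by 0.03 between the mES arrays. Its treatment difference in EpiSCs was 1.72 ± 0.27 (limma adjusted p = 0.0628). With the line as a block it passed (limma adjusted p = 0.0484), as did 5.01% of all genes. Tyk2 had the largest class difference of the 4, at -1.30 ± 0.37 (adjusted p = 0.195).

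Of 6 other STAT genes 1 passed, Stat4, which encodes the STAT of interleukin-12 signalling. It stood at 0.13 and 0.21 on the mES arrays, -1.01 and -4.39 on the E3.5 EpiSC arrays, and -1.23 and -4.90 on the E5.5 EpiSC arrays. Both treated EpiSC arrays lay far below the rest. In EpiSCs it fell by 3.53 ± 0.31 under SB431542 (limma adjusted p = 0.0272, and 0.0153 with the line as a block). There 1.2% of all genes passed as lower, and 5.01% passed in either direction with the line as a block. Stat5a (-1.39, adjusted p = 0.0974) and Stat6 (-1.73, adjusted p = 0.138) had estimates of the same sign that did not pass. The median of the 6 was -0.66 under treatment and -0.84 between the classes, where 0 passed.

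**Figure D5:**
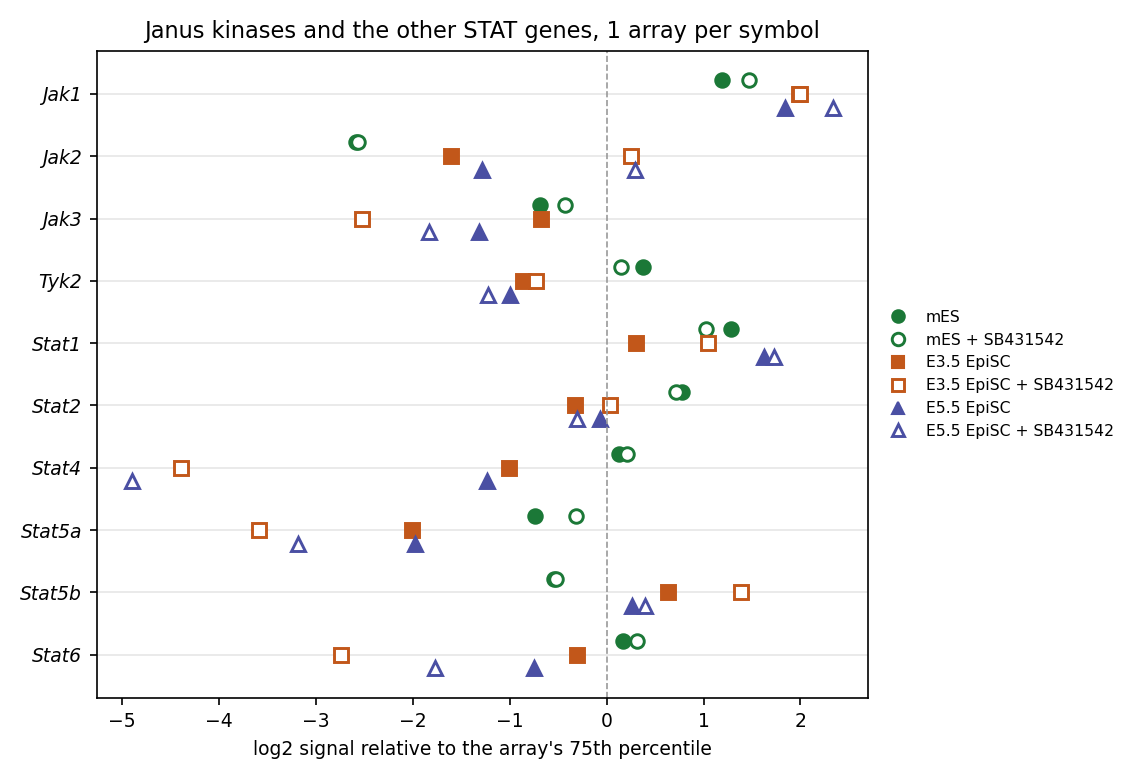
Each symbol is the log2 signal of 1 array minus its 75th percentile for the 4 Janus kinase genes and the 6 STAT genes other than Stat3, with filled symbols for untreated and open symbols for treated arrays of the 3 lines. The open EpiSC symbols lie to the left for Stat4 (-4.39 and -4.90) and to the right for Jak2 (0.25 and 0.30).

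Of 14 other negative regulators (Socs and Pias genes, Cish and phosphatases) 0 passed in either comparison, and their medians were -0.08 between the classes and 0.02 under treatment. Ptpn6, the gene for the phosphatase SHP-1, had the largest estimate, -3.21 ± 0.71 under treatment (limma adjusted p = 0.110). With the line as a block Ptpn6 passed (limma adjusted p = 0.0475), as did 5.01% of all genes. Its values were 0.97 and 1.14 on the mES arrays, 0.39 and -3.80 on the E3.5 EpiSC arrays, and 0.46 and -1.77 on the E5.5 EpiSC arrays. The Socs genes, of the same family as Socs3, were split under treatment. Socs1 (-1.05, adjusted p = 0.261), Socs2 (-1.13, adjusted p = 0.380) and Socs7 (-0.44) had negative estimates, and Socs4 (0.11), Socs5 (0.73) and Socs6 (0.34) positive ones.

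Of 18 other STAT3 response genes 0 passed, with medians of -0.17 between the classes and -0.49 under treatment in EpiSCs. Tfcp2l1, a transcription factor gene downstream of STAT3 in naive cells, had the largest treatment estimate, -2.48 ± 0.48 (limma adjusted p = 0.0883). With the line as a block Tfcp2l1 passed (limma adjusted p = 0.0485), as did 5.01% of all genes. Cebpd (-2.34, adjusted p = 0.251) and Klf5 (-1.95, adjusted p = 0.372) had the next largest treatment estimates. Between the classes Tbx3, Tfcp2l1 and Klf4 had the largest estimates, all lower in EpiSCs and none passing.

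Of 14 other immediate early genes 0 passed, with medians of 0.49 between the classes and -0.27 under treatment. Jun, which encodes another AP-1 subunit, stood at -2.23 and -2.17 on the mES arrays and from 0.11 to 1.09 on the EpiSC arrays, without overlap. Its class difference of 2.57 ± 0.37 narrowly missed the threshold (limma adjusted p = 0.0585). Atf3 (2.58, adjusted p = 0.140) and Ier5 (2.23, adjusted p = 0.107) were also higher in EpiSCs without passing, while the member Ier3 had a negative estimate. Of 10 NF-κB target genes 9 were measured, Nfkb1 having no named probe, and 0 passed. Icam1 had the largest estimates, -3.31 ± 1.05 between the classes (adjusted p = 0.233) and -1.49 under treatment (adjusted p = 0.390). Relb, whose protein belongs to the NF-κB family, stood at -0.27 before and -2.31 after treatment in the E3.5 line, beside -0.44 and -0.88 in the E5.5 line.

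The members did not form a single pattern over the arrays. Ier3 and Pim3 correlated at 0.948 and Lifr and Socs3 at 0.941 (Pearson, brightest probes), while Il6st and Pim2 had the lowest coefficient, -0.147. Pim2 and Socs3 correlated at 0.172. The genes whose pattern over the 6 arrays was most like that of Pim2, among 14477 genes above background on every array, were Cyp2j13 (Pearson 0.999), a cytochrome P450 gene, Swap70 (0.998), and Etv1 (0.996), an ETS factor gene known as an FGF target. Etv1 ran from 2.36 and 2.55 on the untreated EpiSC arrays to -0.92 and -1.24 on the treated ones. In all, 136 genes had a coefficient over 0.95 with Pim2. Those most like Socs3 were Il1r2 (0.996), Fam177a (0.995) and Lao1 (0.994), with 181 genes over 0.95. Il1r2 encodes a decoy receptor for interleukin-1. These coefficients rest on 6 arrays of 3 lines, which share lines and treatment, and are given as descriptions.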

How the data were processed

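Cy3-labelled RNA of 6 cell samples, 1 per group, was read on Agilent arrays with a single colour. Per the file headers, the deposited values are linear spot intensity from which Agilent Feature Extraction 10.7.1.1 had subtracted background; the submitters' processing notes name version 9.1. Marks for spots above background came with the deposited files as yes or no. Spots of a probe were averaged without outliers, log2 intensity was set against the 75th percentile of each array, and the brightest probe stood for its gene. Accessions matched to RefSeq (GRCm38.p6) named 24375 of 41174 probes, giving 17015 genes. The 16152 of them detected above background on 1 array or more were tested. limma 3.58.1 in R 4.3.3 (lmFit, eBayes, Benjamini-Hochberg at 0.05) fitted 4 arms over 6 arrays with 2 residual degrees of freedom, and was tested on simulated data. The mean over lines used line plus treatment. The number of arrays limits the precision.

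Treated and untreated arrays are paired by the line that the labels name, and deviations of paired arrays correlated at 0.741 (mES), 0.517 (E3.5) and 0.633 (E5.5) over 14478 genes. The members and lists were chosen with earlier results of these data known. Named genes are the members, list genes that passed a test or had one of the 3 largest estimates in a list, and for Socs3 and Pim2 the 3 genes with the highest correlation. Others were named as markers, relatives of a member or for a role, after their values were seen. Alternatives were normexp (offset 50, on the median signals, as no mean signal was used here), quantile normalization, other filters, the mean over probes, slide 1 alone, the line as a block and leaving out arrays.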

Additional observations from a re-analysis of the deposited data

Results flagged for a closer look

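Several members differed in sign between lines or classes, and for all but Bcl3 the difference was not tested, since each side is 1 pair of arrays. SB431542 gave opposite signs in the E3.5 and the E5.5 EpiSC line for 5 of the 10 genes and for 24.7% of all genes tested. The median of all genes shifted by -0.31 in the E3.5 pair, whose arrays were on different slides, and by -0.05 in the E5.5 pair. The count and its share were not tested against each other. Socs3, the feedback inhibitor of the pathway, stood at -1.51 in the E3.5 line and 0.92 in the E5.5 line, the widest such gap. Pim1 stood at -1.19 and 0.99, and Stat3 at -0.84 and 0.23. The receptor genes had smaller values, with Lifr at -0.21 and 0.47 and Il6st at -0.087 and 0.57, and for Lifr the other 3 probes were higher on the treated array in both lines. Stat3 also differed in sign between the untreated EpiSC lines, at -0.63 (E3.5) and 0.38 (E5.5) against mES cells. Bcl3 differed by 0.015 in mES cells, or by -0.02 after quantile normalization, and by -2.04 in the mean of the EpiSC lines. The test of that difference in response gave -2.05 ± 2.48 (SE, limma adjusted p = 0.892) and did not pass.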

How the results depend on the processing

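The count of members passing between the untreated classes went from 0 to 1 (Pim2) with normexp, 1 with quantile normalization and 1 with genes above background on all 6 arrays. Of calls there, 37.9% were higher with normexp, against 26.0%. The 242 genes became 0 to 242 when 1 array was left out, with 0 without either treated EpiSC array (3279 at an unadjusted p under 0.05 by limma). For SB431542 in EpiSCs, 338 genes passed, 540 with genes above background on all 6 arrays, and 0 to 338 when 1 array was left out: 195 without the untreated E3.5 array and 0 without the treated E3.5 or E5.5 array (2418 and 5030 at an unadjusted p under 0.05 by limma). The count of members was then 0 to 1. With the line as a replicate block 810 genes passed, and no call on a member changed. Across the 3 lines, leaving out 1 array gave 0 to 810 genes and 0 to 1 members: 810 genes and Pim2 (adjusted p = 0.0119) without either mES array, and 3 genes without either E5.5 array. Without the line as a block Pim2 had an adjusted p of 0.919 there.

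With the mean over probes the Lifr response in EpiSCs minus mES cells became 0.28. On slide 1 alone the estimates across lines became 0.21 (Stat3), 0.43 (Socs3) and 0.21 (Pim1). Leaving out 1 array turned some signs, with the following ranges. The class difference of Stat3 ran from -0.63 to 0.38. SB431542 in EpiSCs ran from -0.38 to 0.64 for Lifr, -0.28 to 0.76 for Il6st, -1.35 to 0.73 for Stat3, -1.89 to 1.29 for Socs3, -4.14 to 0.065 for Bcl3, -1.34 to 0.16 for Junb and -0.88 to 0.68 for Pim1. EpiSCs minus mES cells ran from -0.63 to 0.40 for Lifr, -0.59 to 0.46 for Il6st, -1.53 to 0.55 for Stat3, -1.83 to 1.34 for Socs3, -4.16 to 0.049 for Bcl3, -1.31 to 0.19 for Junb, -1.13 to 0.0078 for Ier3, -0.30 to 1.26 for Pim1 and -0.58 to 0.17 for Pim3. Across lines the ranges were -0.33 to 0.21 for Stat3, -0.78 to 0.43 for Socs3 and -0.88 to 0.21 for Pim1. The cause was not tested. The slide as a random block could not be fitted. The adjusted p of Pim2 for SB431542 in EpiSCs ranged from 0.00399 to 0.141 over the alternatives with a test, and its estimate from -6.20 to -5.91 when 1 array was left out.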
